A study of Homo sapiens with 6 samples.

Results

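H1299, a human lung cancer cell line, was set against the 2 other lines of the study in RNA sequencing libraries from 6 cultures. Its 2 libraries, of 6 in all, were chosen by the cell line label alone, and the vector each culture carried was ignored. The H1299 libraries came from cells with an empty vector and from cells with a malin vector, which carries NHLRC1, the gene for the E3 ubiquitin ligase malin. A549 and the cells labelled H2030 were each represented by the same pair of vectors, so the comparison was 2 libraries against 4. The labels give passage 5 and lung cancer for every culture, with RNA taken at high confluence. A gene was called specific to H1299 when its lower H1299 value exceeded the highest of the other 4 libraries, or when its higher H1299 value lay below the lowest of them. Levels are fragments per kilobase of transcript scaled to the number of mapped fragments (FPKM), and differences are on the log2(FPKM + 1) scale.

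Limits of these groups bear on every value. Each line had 1 library per vector, no label says that the 2 libraries of a line came from independent cultures of it, and the p-values measure only the spread between libraries. H1299 stood for no line but itself. The malin library labelled H2030 has a column heading that carries the short name of a human embryonic kidney line in place of the label, so the pair is called the libraries labelled H2030 and for most gene lists counts are also given against A549 alone. The files list between 11861 and 13179 genes at 1 FPKM or more per library. The steps between low FPKM values correspond to about 8300000 to 10700000 fragments per library, an estimate with no interval. In RNA from whole cultures, fewer cells that use a gene and less RNA per cell cannot be told apart.

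H1299 is a non-small-cell lung cancer line that was started from a lymph node metastasis. It carries an activating NRAS mutation. Cancer-testis genes are normally active in germ cells, are kept silent in most body tissues, with DNA methylation at CpG-containing promoters among the known means, and are often active in tumours. Epithelial cells are recognised by keratins, E-cadherin and desmosome proteins, and cells that leave the epithelial state by vimentin.

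The promoters of 4 genes at the extremes of the comparison are printed, chosen after their values were seen, and they do not stand for the groups they come from. MAGEA4 and GTSF1 were at high levels in H1299 and near 0 elsewhere. LDOC1 and COL4A1 were near 0 in H1299, and elsewhere at 22.1 to 44.9 and at 8.26 to 15.1 FPKM. Each window holds 250 bases before and 50 bases after the start of the gene in RefSeq on GRCh38.p14, read 5′ to 3′ on the strand of the gene, with every CpG in capitals. They lie at chrX:151912224-151912523 on the plus strand for MAGEA4, chr12:54473553-54473852 on the minus strand for GTSF1, chrX:141177080-141177379 on the minus strand for LDOC1 and chr13:110307108-110307407 on the minus strand for COL4A1.
MAGEA4: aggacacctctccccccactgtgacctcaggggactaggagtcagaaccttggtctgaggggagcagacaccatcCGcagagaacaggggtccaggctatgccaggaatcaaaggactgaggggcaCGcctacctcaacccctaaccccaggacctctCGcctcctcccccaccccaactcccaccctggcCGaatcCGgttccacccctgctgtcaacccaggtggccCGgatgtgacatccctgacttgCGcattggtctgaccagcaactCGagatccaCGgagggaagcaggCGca
GTSF1: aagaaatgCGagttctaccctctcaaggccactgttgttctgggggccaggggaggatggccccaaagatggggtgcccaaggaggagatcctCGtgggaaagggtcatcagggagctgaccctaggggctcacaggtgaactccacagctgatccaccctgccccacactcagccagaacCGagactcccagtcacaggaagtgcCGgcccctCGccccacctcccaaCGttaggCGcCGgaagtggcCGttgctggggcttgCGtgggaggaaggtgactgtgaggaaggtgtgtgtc
LDOC1: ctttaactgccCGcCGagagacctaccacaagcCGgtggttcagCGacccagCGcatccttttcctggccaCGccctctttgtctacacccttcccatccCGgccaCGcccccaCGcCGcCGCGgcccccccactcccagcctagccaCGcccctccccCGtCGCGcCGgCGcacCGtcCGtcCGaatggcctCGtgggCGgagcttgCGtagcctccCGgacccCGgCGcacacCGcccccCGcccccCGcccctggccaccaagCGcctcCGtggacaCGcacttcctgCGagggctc
COL4A1: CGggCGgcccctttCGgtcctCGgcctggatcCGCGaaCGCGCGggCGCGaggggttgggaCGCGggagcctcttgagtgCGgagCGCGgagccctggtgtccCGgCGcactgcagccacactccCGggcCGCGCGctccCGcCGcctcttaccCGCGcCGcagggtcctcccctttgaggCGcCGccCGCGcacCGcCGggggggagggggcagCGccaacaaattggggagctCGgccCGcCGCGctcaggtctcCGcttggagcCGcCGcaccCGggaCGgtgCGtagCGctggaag
The MAGEA4 and GTSF1 windows hold 10 CpG each. The LDOC1 window holds 34, and the COL4A1 window holds 45. Counts vary widely within each direction: TDRD9 and NTSR1, present in H1299 and near 0 elsewhere, have 41 and 45, while GPX1 and DNAJC12, near 0 in H1299, have 23 and 1. COL4A2 starts on the opposite strand, and its own window at chr13:110307034-110307333 shares 226 bases with that of COL4A1.

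Across 12184 protein-coding genes with a mean level of at least 1 FPKM, 2746 (22.5%) were higher in both H1299 libraries than in all 4 others. Another 3296 (27.1%) were lower in both than in all 4 others. A gap of at least 1 log2 unit between H1299 and the nearest other library was present for 445 genes in the higher direction (3.65%) and for 445 in the lower direction (3.65%). limma, fitted to all 12184 genes as 2 libraries against 4, called 861 genes higher (7.07%) and 856 lower (7.03%) at an adjusted p under 0.05, and every one of these also had values that did not overlap. Against A549 alone 49% of the tested genes were higher and 39.5% lower. Every count of list members against A549 alone given below is to be read beside these shares. The limma counts of list members are to be read beside 7.07% higher and 7.03% lower. Over all 19903 genes in the files, with no minimum level, 17.4% were higher than all 4 other libraries and 21% lower. By the same order rule A549 had 2263 genes higher and 4077 lower, and the libraries labelled H2030 had 4575 higher and 2037 lower. The 2 H1299 libraries were close to each other: the median size of the malin minus empty difference was 0.08 on the log2 scale. Only 1 gene with a gap of at least 1 differed by 1 log2 unit or more between them, the histone gene HIST1H2BH at 8.66 and 3.32 FPKM, and it was listed at 0 in all other libraries.

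The unit of this comparison is the line as much as the library. When each line was reduced to the mean of its libraries, limma called 0 genes, with 396 at an unadjusted p under 0.05. With line as a random block it called 29 higher and 9 lower. Of the 21 genes whose limma difference and adjusted p as called genes are printed below, 9 were still called with that block: MAGEA4, GAGE12G, TDRD12, IL13RA2, GPX1, UBE2E1, LDOC1, COL4A2 and MMP14. The other 12 were not, with adjusted p from 0.0639 to 0.414 under the block: G0S2, SLFN11, COL4A1, JUP, VIM, DUSP6, HMGA2, CDK6, GSTP1, ID2, FGF5 and IFITM3. BAMBI, GRB10, SPINT2, CDH1, ID3, SMAD6 and SMAD7, given below as called without printed limma values, were not called with the block either. All 9 genes called with it had been named for the size of their gap in the same values. MAGEA4, GAGE12G, TDRD12, IL13RA2 and MMP14 were under 1 FPKM in every library outside H1299 and passed the filter only through H1299. With both other lines that low, the block had little spread between them to weigh, so no conclusion is drawn from these calls. Leaving out the empty-vector H1299 library left 52 higher and 24 lower, and leaving out the malin H1299 library left 53 and 24. Without the empty-vector A549 library the counts were 436 and 368, and without the malin one 493 and 425.

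**Figure D1:**
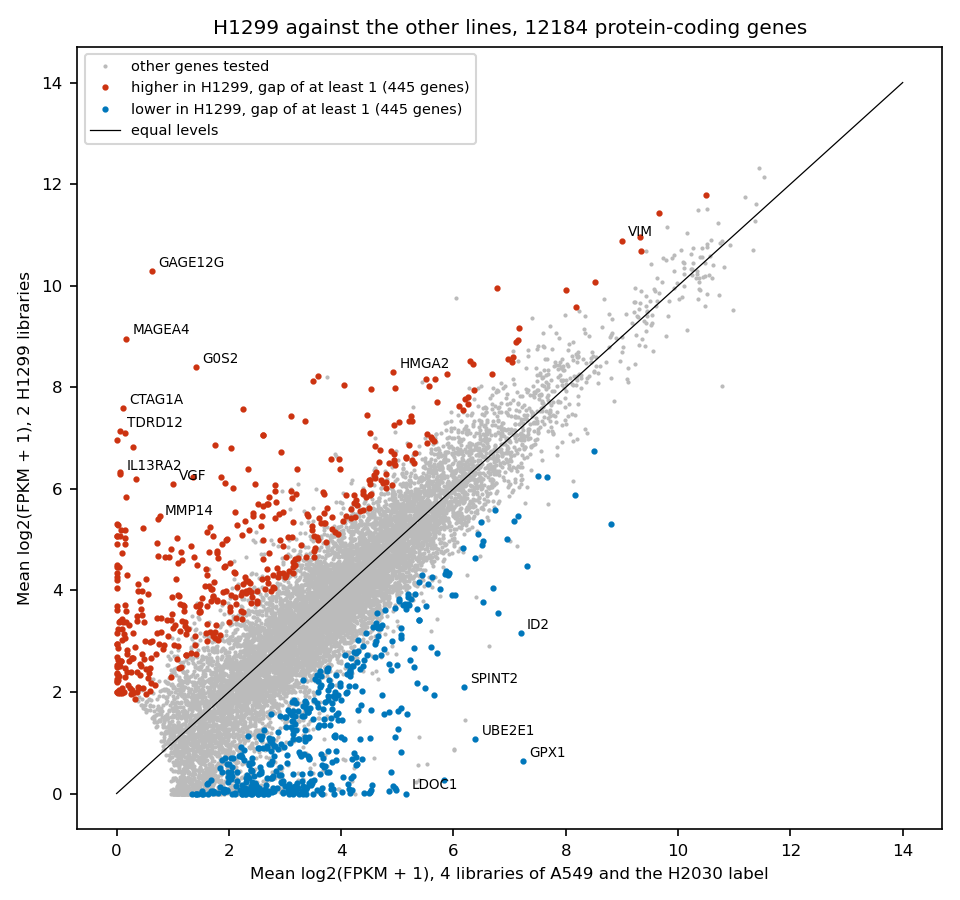
Each point is 1 of 12184 protein-coding genes, with its mean log2(FPKM + 1) in the 4 libraries of A549 and the H2030 label on the x axis and in the 2 H1299 libraries on the y axis. Red and blue points are the 445 genes above and the 445 below with a gap of at least 1 log2 unit, and germline genes such as GAGE12G and MAGEA4 stand along the left edge.

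The genes with the largest gaps in the higher direction were germline genes. MAGEA4, a member of the MAGE family that binds ubiquitin ligases, was at 493 and 500.2 FPKM in the empty-vector and malin H1299 libraries, at 0.12 in both A549 libraries and at 0.15 and 0.13 in those labelled H2030. GAGE12G, of the GAGE cancer-testis family, was at 1224 and 1268 FPKM in H1299 and at no more than 0.93 in any other library. CTAG1A, which encodes the NY-ESO-1 antigen, was at 186 and 196 FPKM in H1299 and listed at 0 in 3 of the other libraries, with 0.37 in the fourth. No library of another line came near these levels. The differences were 8.78 ± 0.15 (SE) for MAGEA4, adjusted p = 2.67e-05 in limma, and 9.65 ± 0.24 for GAGE12G, adjusted p = 6.44e-05. CTAG1A and the GAGE and MAGEA2 genes have near-identical copies, so the share of reads that each copy received is uncertain.

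Of 41 cancer-testis genes in the files, 24 were higher in both H1299 libraries than in all others and 0 were lower, against 17.4% and 21% of all genes in the files. In H1299 21 of the 41 reached 1 FPKM in both libraries, against 4 in A549 and 2 in the libraries labelled H2030. MAGEA3 was at 113 and 111 FPKM in H1299 and at 0.48 or less elsewhere. MAGEA12 was at 72.0 and 71.5 FPKM, CSAG1 at 53.6 and 59.7 and MAGEA2 at 37.6 and 40.1, all 3 with no other library above 0.55. The family was not silent everywhere else: MAGEA6 reached 9.98 and 9.64 FPKM in A549 against 117 and 114 in H1299. XAGE1E was at 30.6 and 37.6 FPKM in A549, 129 and 136 in H1299 and no more than 0.08 under the H2030 label. PRAME, a repressor of retinoic acid signalling, was at 80.9 and 79.1 FPKM in A549, 135 and 139.9 in H1299 and 11.6 and 10.2 under the H2030 label. MAGEA6, XAGE1E and PRAME were singled out after their values were seen.

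Whole branches of the family were near 0 in H1299 too. MAGEC1, MAGEB1, MAGEB6 and MAGEA11 were listed at 0 in both H1299 libraries. MAGEC2 was at 0.05 and 0 FPKM. LIN28B, an RNA-binding repressor of let-7 that the list also holds, was at 32.1 and 30.2 FPKM in H1299 and at 26.7 and 35.7 under the H2030 label, so its values overlapped. The MAGEB and MAGEC genes and MAGEA11 were picked after their values were seen.

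Genes of meiosis and of the piRNA pathway, which silences transposons in germ cells, formed another group. This list was drawn up after the values had been seen. Of its 48 genes in the files, 18 were higher in H1299 and 3 were lower, against 17.4% and 21% of all genes in the files. TDRD12, a Tudor-domain helicase of the piRNA pathway, was at 137 and 142 FPKM in H1299 and at no more than 0.13 in any other library, a difference of 7.07 ± 0.17 (SE) with adjusted p = 6.44e-05 in limma. GTSF1, a zinc finger partner of PIWI proteins whose promoter is printed above, was at 84.8 and 74.5 FPKM and listed at 0 in 3 of the other 4 libraries. TDRD9 was at 19.9 and 22.1 FPKM and GPAT2 at 9.67 and 9.96. The PIWI proteins themselves, which carry piRNAs, were not at such levels: PIWIL2 was at 0.16 and 0.20 FPKM in H1299, PIWIL3 at 0.06 and 0 and PIWIL4 at 0.77 and 0.59.

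Meiotic chromosome genes were also part of this group, without the complete set. SYCE1, of the central element of the synaptonemal complex, was at 19.6 and 18.8 FPKM in H1299 and listed at 0 in all 4 other libraries. STAG3, the meiotic cohesin subunit, was at 14.6 and 15.1 FPKM against 0.61 at most elsewhere. SYCP2 was at 8.38 and 8.85 FPKM against 1.51 at most. SYCP3 and SYCP1, the other main axis and filament proteins, stayed at 0.10 FPKM or less in both H1299 libraries, and REC8, the meiotic kleisin, was at 0.35 and 0.33. Among germ-cell transcription factors, RHOXF2 was at 128 and 143 FPKM in H1299, with its near-identical copy RHOXF2B at 129 and 119, and SOHLH2 at 34.2 and 30.7, all with no other library above 0.20. The meiotic cyclin CCNA1 was at 10.1 and 12.2 FPKM, and no other library exceeded 0.28. Except for TDRD12, GTSF1, RHOXF2, RHOXF2B and SOHLH2, the meiosis and piRNA genes named were singled out after their values were seen.

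**Figure D2:**
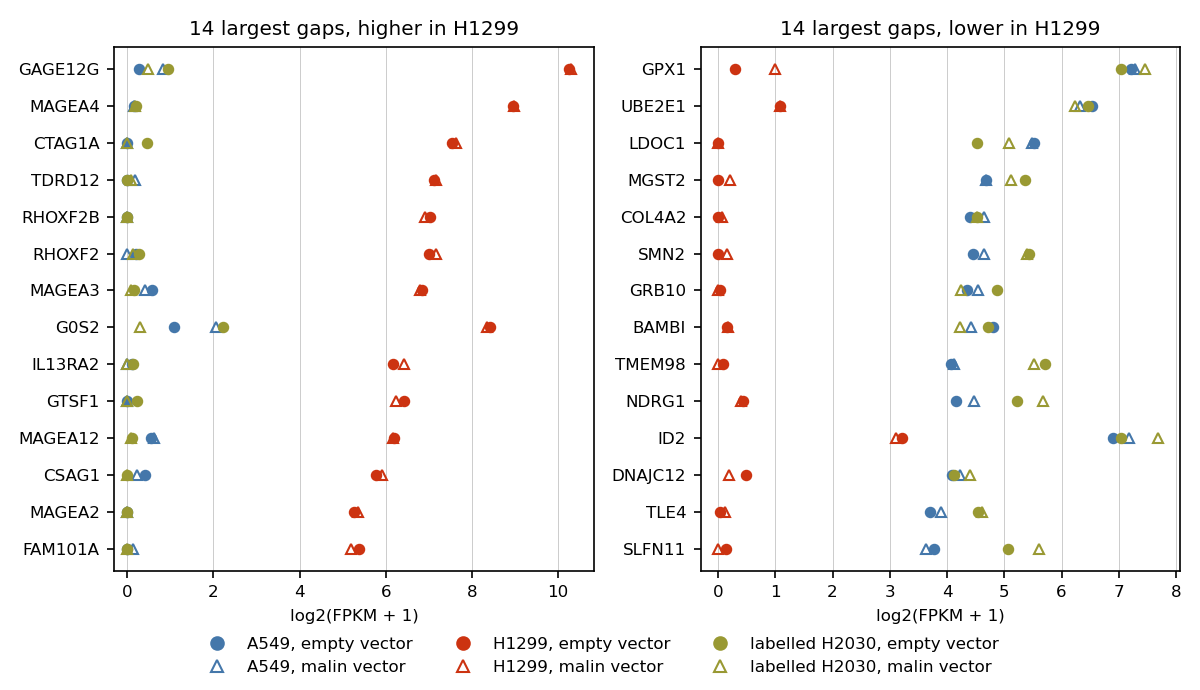
The 14 genes with the largest gap in each direction are drawn with log2(FPKM + 1) on the x axis and 1 symbol per library, filled for the empty vector and open for malin. In every row the 2 red H1299 symbols lie apart from the 4 others, and in the left panel germline genes such as MAGEA4 and TDRD12 fill most rows.

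In all, 50 protein-coding genes reached 5 FPKM in both H1299 libraries with no other library at 0.5. Their mean level passed the 1 FPKM minimum only through H1299. Of the 50, 22 (44.0%) lie on the X chromosome, against 3.65% of all genes tested. That share is not a like background, because genes near 0 in every library were left out of the genes tested. Near-identical copies such as RHOXF2 and RHOXF2B also count as separate genes. The reverse pattern, 5 FPKM or more in all 4 others and under 0.5 in both H1299 libraries, held for 37 genes, 5 of them on X. By the same limits A549 alone had 65 genes present and 21 absent, and the libraries labelled H2030 had 76 and 33. Promoter windows were found for 37 of the 50 and 24 of the 37. The median number of CpG per 300-base window was 17 for the genes present in H1299, 13 for the X-linked ones among them and 22 for the rest. Copies weigh on the X-linked median, since RHOXF2, RHOXF2B, GAGE1, GAGE12D and GAGE12J have 13 each. The median was 25.5 for the genes absent from H1299, 27 for all 10056 tested genes with a window, and 23 for the 394 of those on X. These are counts of letters in reference sequence and carry no measure of methylation.

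Large gaps were also present for genes not named among the germline genes above. G0S2, an inhibitor of the lipase that starts the breakdown of stored fat, was at 342 and 327 FPKM in H1299, at 1.11 and 3.17 in A549 and at 3.70 and 0.23 under the H2030 label. IL13RA2, a decoy receptor for interleukin-13, was at 70.8 and 84.3 FPKM in H1299 and at no more than 0.09 elsewhere. VGF, a precursor of secreted neuropeptides, was at 65.1 and 70.0 FPKM against 1.51 at most. The H1299 libraries were the high ones for all 3, with differences of 6.97 ± 0.58 (SE) for G0S2, adjusted p = 0.00255, and 6.23 ± 0.19 for IL13RA2, adjusted p = 0.00011, both in limma.

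At the other extreme, H1299 had almost no message for several widely expressed genes. GPX1, a selenium-containing peroxidase that removes hydrogen peroxide, was at 0.23 and 0.99 FPKM in H1299, at 147 and 154 in A549 and at 129.9 and 175 under the H2030 label. UBE2E1, an E2 ubiquitin-conjugating enzyme, was at 1.11 FPKM in both H1299 libraries and between 74.3 and 91.9 elsewhere. LDOC1, a small nuclear protein whose promoter is printed above, was listed at 0 in both H1299 libraries and lay between 22.1 and 44.9 FPKM elsewhere. The groups were far apart for each of these. The differences in limma were -6.60 ± 0.24 (SE) for GPX1, adjusted p = 0.000185, -5.31 ± 0.15 for UBE2E1, adjusted p = 8.85e-05, and -5.15 ± 0.32 for LDOC1, adjusted p = 0.00109.

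A listed 0 in these files needs care. PRDX2, a peroxiredoxin of most cells, was listed at 0 in both H1299 libraries and at 0.92 and 0.20 FPKM in A549, but at 228 and 241 under the H2030 label. SMN2 was listed at 0 and 0.11 FPKM in H1299 and between 21.0 and 42.2 elsewhere, while its near-identical copy SMN1 was at 49.8 and 51.0 in H1299 and between 30.8 and 49.1 elsewhere. The assignment of reads between SMN1 and SMN2 is uncertain. SMN1 was among the closest calls, with a gap of 0.02 on the log2 scale, whereas ESRP2 at 0.80 and 0.79 FPKM in H1299 was called lower against 0.83 in the nearest other library.

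Other genes near 0 in H1299 covered several roles. BAMBI, a pseudoreceptor that dampens TGF-beta signalling, was at 0.12 and 0.13 FPKM and between 17.8 and 26.8 elsewhere. GRB10, an adaptor of the insulin receptor, was at 0.02 and 0 FPKM and between 18.0 and 28.3 elsewhere. SLFN11, known for sensitising cells to DNA-damaging drugs, was at 0.10 and 0 FPKM, at 12.7 and 11.4 in A549 and at 32.5 and 47.9 under the H2030 label. All 3 were called lower by limma, SLFN11 with a difference of -4.45 ± 0.62 (SE) and adjusted p = 0.0107. The corepressor TLE4 was at 0.02 and 0.09 FPKM against 12.1 or more, and the kinase DAPK1 at 0 and 0.02 against 7.61 or more. The adhesion molecule CADM1 was at 0 and 0.02 FPKM against 10.1 or more. TSC22D3, a glucocorticoid-induced protein, was at 0.24 and 0.16 FPKM in H1299, but the other lines were so unlike each other, at 6.59 and 7.45 against 515 and 309, that limma did not call it (adjusted p = 0.131).

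Type IV collagen genes were near 0 in H1299. COL4A2 was at 0 and 0.05 FPKM in H1299 and between 20.2 and 23.9 in the other 4 libraries, a difference of -4.48 ± 0.16 (SE) with adjusted p = 0.000185 in limma. Its head-to-head neighbour COL4A1 was at 0 and 0.02 FPKM against 8.26 to 15.1, a difference of -3.63 ± 0.28 with adjusted p = 0.00207. COL4A6 was at 0.19 and 0.13 FPKM against 6.75 or more, and COL4A5 at 0.73 and 0.72 against 7.46 or more. These genes encode type IV chains, which assemble into the network of the basement membrane, and neither H1299 library reached 1 FPKM for any of the 4. COL5A1, a fibrillar chain, was at 0 and 0.01 FPKM against 3.34 or more, and the laminin chain LAMA3 at 0.57 and 0.76 against 4.32 or more. Of 30 tested collagen and matrix genes 15 were lower in H1299 and 5 higher, against 27.1% and 22.5% of all genes tested, with 6 and 0 called by limma. The median difference of the list was -1.01, against -0.09 over all genes tested, and against A549 alone 20 were lower and 7 higher.

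Some genes of matrix degradation were higher in H1299 and others lower. MMP14, a membrane-bound metalloproteinase that activates other proteinases, was at 40.9 and 42.3 FPKM in H1299 and at no more than 0.92 elsewhere, a difference of 4.67 ± 0.21 (SE) with adjusted p = 0.000368 in limma. MMP1, a collagenase, was at 23.1 and 28.6 FPKM against 0.24 at most. PLAUR, the urokinase receptor, was at 169 and 173 FPKM in H1299, 14.7 and 20.4 in A549 and about 3 under the H2030 label, at 3.01 and 3.09. MMP2 had the reverse pattern, at 0.61 and 0.69 FPKM against 3.23 or more, as did MMP15, at 0.07 and 0.42 against 1.99 or more. The list of matrix metalloproteinases, their inhibitors and the plasminogen system, made after the values had been seen, had 6 of 19 tested members higher and 5 lower, near the shares of all genes tested, with 4 and 2 called by limma and a list median of -0.58. Against A549 alone 9 were higher and 9 lower. Among integrins, which bind matrix, 4 of 12 were higher and 0 lower, against 22.5% and 27.1% of all genes tested. Their list median was 0.24. Against A549 alone 6 were higher and 5 lower, near the 49% and 39.5% of all genes tested. ITGA6, a laminin receptor chain, was at 97.9 and 91.3 FPKM in H1299 against 24.6 at most, and ITGA4 at 14.04 and 12.84 against 3.66 at most.

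**Figure D3:**
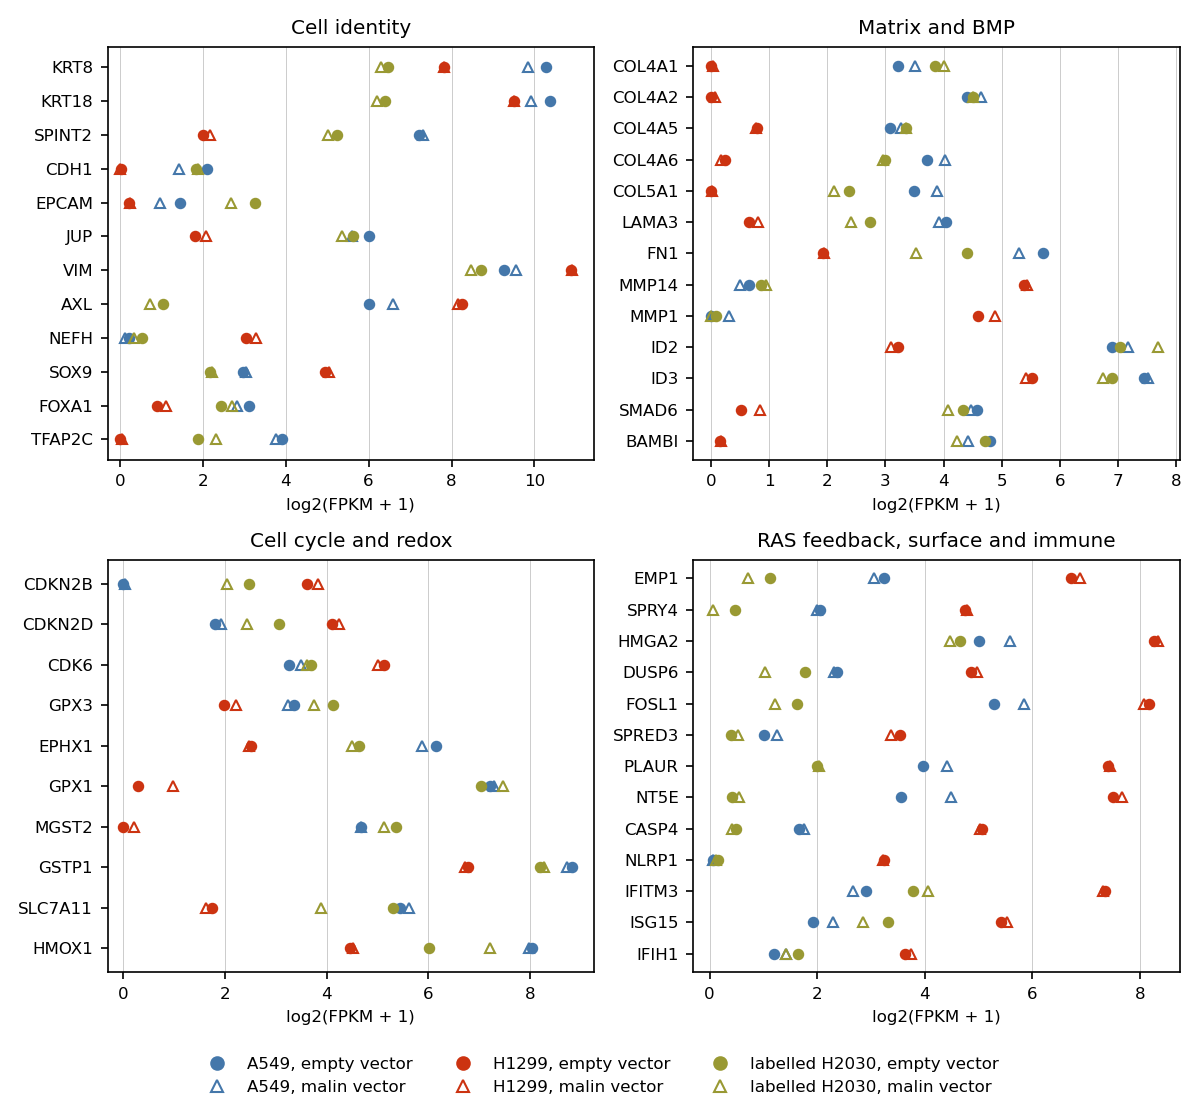
Genes from 4 groups are drawn with log2(FPKM + 1) on the x axis and 1 symbol per library, filled for the empty vector and open for malin. H1299 lies below all other libraries for the type IV collagens and GPX1, above them for MMP14, EMP1 and IFITM3, and between the other lines for KRT8 and KRT18.

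Markers of epithelial cells were present in H1299 in part. Of 34 epithelial genes in the files, 13 reached 1 FPKM in both H1299 libraries, 19 in A549 and 15 under the H2030 label. KRT8 was at 225 and 226 FPKM and KRT18 at 726 and 725, both between A549, at 921 to 1334 for these 2 genes, and the libraries labelled H2030, at 72.9 to 88.2. The E-cadherin gene CDH1 was at 0.02 and 0 FPKM against 1.67 to 3.27 elsewhere, and EPCAM at 0.17 and 0.19 against 0.95 to 8.55. SPINT2, an inhibitor of membrane serine proteases in epithelia, was at 3.04 and 3.51 FPKM against 31.2 or more, and JUP, the junction protein plakoglobin, at 2.51 and 3.22 against 39.9 or more. limma called SPINT2, CDH1 and JUP lower, the last with a difference of -3.70 ± 0.22 (SE) and adjusted p = 0.000932. Of 22 tested epithelial genes 6 were lower and 0 higher, against 27.1% and 22.5% of all genes tested, and against A549 alone 17 were lower and 3 higher. Several junction genes were present in H1299, named after their values were seen: CLDN1 was at 28.5 and 27.3 FPKM, TJP1 at 26.4 and 26.6, DSP at 6.24 and 5.28 and OCLN at 5.44 and 6.09. CLDN1, TJP1 and OCLN lay between the other lines. DSP was lower than in all other libraries, at 7.34 or more, as was DSG2, at 15.2 and 17.0 FPKM against 25.1 or more. limma called neither DSP nor DSG2. Some keratins set A549 apart instead: KRT7 was at 1302 and 1269 FPKM in A549 but 1.09 and 1.24 in H1299 and 0.66 and 0.12 under the H2030 label.

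Vimentin message was higher in H1299, where VIM was at 1885 and 1905 FPKM against 352 to 755 elsewhere, a difference of 1.89 ± 0.33 (SE) with adjusted p = 0.0199 in limma. NEFH, a neurofilament chain, was at 7.20 and 8.77 FPKM against 0.44 at most. NEFL, another such chain, went the other way, at 1.75 and 2.24 FPKM against 3.92 or more. Of 20 tested neuronal and neuroendocrine genes 6 were higher and 3 lower, against 22.5% and 27.1% of all genes tested. That list had a median of -0.18, with 1 gene called higher and 1 lower by limma. Other mesenchymal genes did not follow VIM: FN1, for fibronectin, was at 2.81 and 2.83 FPKM in H1299 against 10.6 or more, and SPARC at 0.22 and 0.26 against 4.58 or more. The receptor kinase AXL was at 306 and 286 FPKM in H1299, 63.7 and 95.4 in A549 and 1.06 and 0.64 under the H2030 label. Its groups did not overlap, but the spread among the other lines kept it uncalled by limma (adjusted p = 0.18). Of 27 tested mesenchymal genes 7 were higher and 10 lower, against 22.5% and 27.1% of all genes tested, with a list median of -0.18. Against A549 alone 10 were higher and 17 lower.

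Markers of mature lung cells were low or listed at 0 in H1299. NKX2-1, the lung lineage factor, was at 0.77 and 0.60 FPKM, the surfactant gene SFTPB at 0 and 0.11 and SFTPC at 0 in both. In A549 NKX2-1 was listed at 0 in both libraries too. The summed level of the 6 lung markers was 1.64 and 1.98 FPKM in H1299, 18.3 and 17.0 in A549 and 7.96 and 10.2 under the H2030 label. In A549 the foregut factors FOXA2, at 10.2 in both libraries, and FOXA1, at 7.70 and 6.11, made up nearly all of that sum, with SFTPB listed at 0 and NAPSA at 0.44 and 0.51. FOXA1 was at 0.87 and 1.15 FPKM in H1299 against 4.44 or more, while SOX9, of the distal lung progenitor, was at 29.8 and 32.1 against 7.24 at most. Among immune markers, PTPRC was at 0.07 FPKM in both H1299 libraries. CD68, a lysosomal protein of macrophages that tumour lines also make, was at 45.7 and 53.3 FPKM in H1299 against 11.8 at most.

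Homeobox and other transcription factors had members in both directions, with shares of members that did not overlap near those of all genes tested. HOXB2 was at 67.4 and 69.7 FPKM in H1299, at 1.36 and 0.57 in A549 and at 7.20 and 5.96 under the H2030 label. HOXB4 was at 24.3 and 24.2 FPKM against 3.44 at most, and HOXB7 at 33.7 and 37.0 against 12.7 at most. HOXC13 went the other way, at 1.10 and 0.70 FPKM against 5.94 or more. Of 33 tested HOX genes 7 were higher and 9 lower, near the shares over all genes. Against A549 alone 20 were higher and 9 lower, where all genes tested gave 49% and 39.5%. Of 49 tested genes on the list of other transcription factors 12 were higher and 12 lower, against 22.5% and 27.1% of all genes tested. limma called 7 of them higher and 7 lower, and the list median was -0.32. Against A549 alone 27 were higher and 16 lower. From this list, the forkhead gene FOXD1 was at 51.0 and 50.9 FPKM in H1299 against 11.1 at most. FOXF2 was listed at 0 in both H1299 libraries against 5.61 or more, TFAP2C was at 0 and 0.04 against 2.66 or more, and TBX3 at 0.33 and 0.35 against 10.99 or more.

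**Figure D4:**
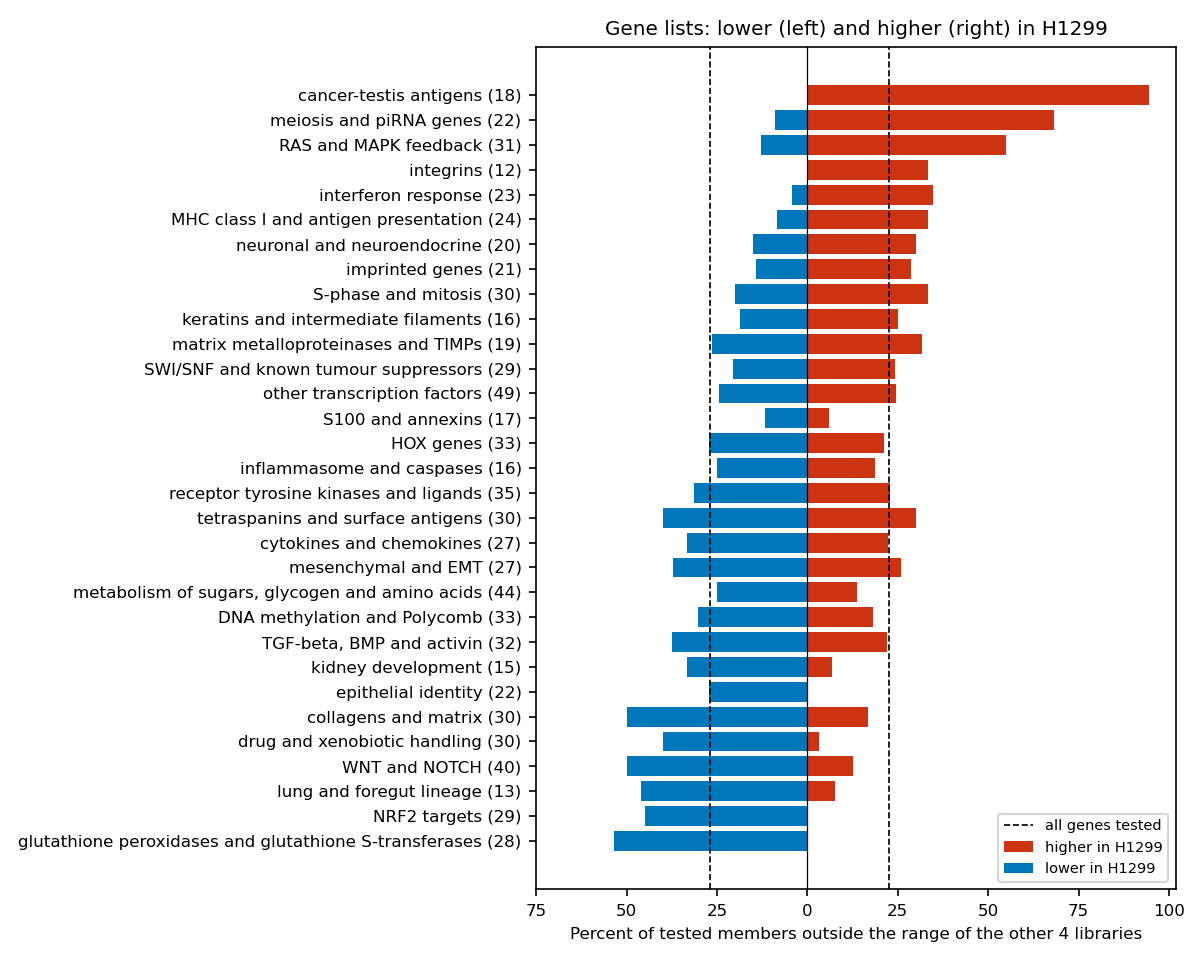
Bars give, for each gene list drawn, with its number of tested members (12 or more) in brackets, the percent of members above (red, right) and below (blue, left) the range of the other 4 libraries, and dashed lines give the shares of all genes tested, 22.5% and 27.1%. The 2 germline lists reach farthest right, but most of their members passed the filter through H1299; RAS feedback genes follow with 17 of 31 higher.

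Feedback and output genes of the RAS and MAPK pathway, which carries growth signals from receptors to the nucleus, made up another list. Of 31 tested genes 17 were higher in H1299 and 4 lower, against 22.5% and 27.1% of all genes tested, with 8 and 0 called by limma, and the list median was 0.99. Against A549 alone 22 were higher and 8 lower, where all genes tested gave 49% and 39.5%. The phosphatase DUSP6, which inactivates ERK, was at 28.0 and 30.3 FPKM in H1299, at 4.17 and 3.94 in A549 and at 2.40 and 1.05 under the H2030 label. The inhibitors SPRY4, at 25.8 and 26.6 FPKM against 3.15 at most, and SPRED3, at 10.6 and 9.40 against 1.37 at most, had the same order. HMGA2, a chromatin architectural protein, was at 306 and 320.2 FPKM against 46.8 at most, and the membrane protein EMP1 at 104 and 116 against 8.43 at most. limma gave DUSP6 a difference of 3.04 ± 0.41 (SE), adjusted p = 0.0101, and HMGA2 3.37 ± 0.32, adjusted p = 0.00402. DUSP4, another ERK phosphatase, had the opposite order, at 0.09 and 0.04 FPKM in H1299 against 1.49 or more, and was named after its values were seen. CCND1 and ETV4 overlapped, since A549 was above H1299 for both. The transcription factor FOSL1 was at 286 and 269 FPKM in H1299, 38.1 and 56.3 in A549 and 2.09 and 1.31 under the H2030 label, and limma did not call it (adjusted p = 0.0994).

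Regulators of the G1 phase were mixed. On the list that holds them 4 of 20 tested genes were higher and 4 lower, against 22.5% and 27.1% of all genes tested. The list median was 0.02, and against A549 alone 13 were higher and 7 lower. RBL1 was among the lower ones, at 7.55 and 6.64 FPKM in H1299 against 9.80 or more. RB1, CDK4 and CCNE1 overlapped. CDK6, the kinase that starts RB phosphorylation, was at 34.1 and 31.0 FPKM in H1299 against 12.01 at most, with a difference of 1.55 ± 0.18 (SE) and adjusted p = 0.00658 in limma. Its inhibitor CDKN2D was at 16.3 and 18.0 FPKM against 7.39 at most. CDKN2B was at 11.3 and 13.3 FPKM in H1299, 4.55 and 3.10 under the H2030 label and 0 and 0.03 in A549. CDKN2A, next to it, was at 58.9 and 67.9 FPKM in H1299 and 63.2 and 78.8 under the H2030 label, but at 0.09 and 0 in A549, so that A549 alone stood apart.

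Genes of thiol redox defence were looked at next. On a list of glutathione peroxidases, glutathione S-transferases and peroxiredoxins, made after the values had been seen, 15 of 28 tested genes were lower and 0 higher, against 27.1% and 22.5% of all genes tested, with 5 called lower by limma and a list median of -0.50. Against A549 alone 19 were lower and 6 higher. MGST2, a microsomal glutathione transferase, was at 0 and 0.16 FPKM in H1299 against 24.6 or more. GSTP1, an abundant transferase, was at 109 and 105 FPKM against 291 or more, with a difference of -1.74 ± 0.22 (SE) and adjusted p = 0.00852 in limma. GPX3 was at 2.94 and 3.65 FPKM against 8.48 or more. The list includes small gaps, such as PRDX4 at 139.8 and 140.1 FPKM against 146 or more.

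Targets of NRF2, the transcription factor of the oxidative stress response, gave 13 of 29 tested genes lower and 0 higher, against 27.1% and 22.5% of all genes tested, with a list median of -1.94 and 3 called lower by limma. All 29 were lower than in both A549 libraries, whereas against the libraries labelled H2030 alone 13 were lower and 12 higher. SLC7A11, the cystine transporter, was at 2.36 and 2.10 FPKM in H1299, at 42.2 and 48.2 in A549 and at 38.5 and 13.8 under the H2030 label. EPHX1 was at 4.75 and 4.53 FPKM against 21.5 or more, and the haem-degrading enzyme HMOX1 at 20.9 and 22.0 against 63.3 or more. AKR1B10, an aldo-keto reductase, was at 1144 and 982 FPKM in A549 but at 0.31 and 0.68 in H1299 and 0.72 and 0.48 under the H2030 label, so it set A549 apart. Of 30 tested drug-handling genes 12 were lower and 1 higher, against 27.1% and 22.5% of all genes tested, with a list median of -1.72. Against A549 alone 23 were lower and 5 higher, where all genes tested gave 39.5% and 49%. ALDH1A3, which makes retinoic acid, was at 0.06 and 0.18 FPKM in H1299 against 8.58 or more.

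Signalling genes of WNT and NOTCH had 20 of 40 tested members lower and 5 higher, against 27.1% and 22.5% of all genes tested, with 7 and 3 called by limma and a list median of -0.94. Against A549 alone 23 were lower and 10 higher. LGR4, a receptor for R-spondins that potentiates WNT, was at 2.08 and 2.02 FPKM in H1299 against 12.6 or more. FZD8, a WNT receptor, was at 0.09 and 0.13 FPKM against 3.79 or more, and ZNRF3 and RNF43, which remove WNT receptors from the surface, were at 1.02 and 1.36 FPKM against 4.44 or more and at 0.06 and 0.02 against 1.02 or more. DKK3 was higher, at 13.1 and 14.1 FPKM against 5.23 at most. In the BMP branch of the TGF-beta family, ID2, an inhibitor of helix-loop-helix factors, was at 8.29 and 7.59 FPKM in H1299 against 118 or more, a difference of -4.04 ± 0.24 (SE) with adjusted p = 0.000964 in limma. ID3 was at 45.2 and 41.7 FPKM against 105 or more, and the inhibitory SMAD6 at 0.44 and 0.80 against 15.9 or more. ID2, ID3, SMAD6 and SMAD7, all known to be induced by BMP or TGF-beta signals, were called lower by limma. None of them was called with line as a random block. They were named for the size of their gap, and the activity of these signals was not tested. LTBP2, which binds matrix fibrils, was higher, at 13.7 and 17.2 FPKM against 5.03 at most. Of the 32 tested genes of the family 12 were lower and 7 higher, against 27.1% and 22.5% of all genes tested, with a list median of -0.68. Against A549 alone 20 were lower and 11 higher.

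Receptor and ligand genes were mixed. FGF5, a fibroblast growth factor, was at 22.6 and 22.0 FPKM in H1299 against 1.56 at most, with a difference of 3.46 ± 0.25 (SE) and adjusted p = 0.00169 in limma. IGF1R, the receptor for insulin-like growth factor, was at 3.11 and 2.79 FPKM against 10.8 or more. At the surface, NT5E, the enzyme CD73 that makes adenosine, was at 180.1 and 201 FPKM in H1299, 10.8 and 21.4 in A549 and 0.34 and 0.46 under the H2030 label. CD82, a tetraspanin, was at 39.8 and 36.7 FPKM against 4.39 at most, and CD109 was at 0.11 and 0.07 against 5.10 or more.

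Innate sensing and antigen presentation genes had members on either side. Of 23 tested interferon-response genes 8 were higher and 1 lower, against 22.5% and 27.1% of all genes tested, with 5 and 0 called by limma and a list median of 0.25. Against A549 alone 15 were higher and 7 lower, where all genes tested gave 49% and 39.5%. IFITM3, which blocks virus entry, was at 162 and 157 FPKM in H1299 against 15.6 at most, a difference of 3.98 ± 0.44 (SE) with adjusted p = 0.00586 in limma. ISG15, a ubiquitin-like modifier, was at 41.7 and 45.1 FPKM against 8.95 at most, and the RNA sensor IFIH1 at 11.5 and 12.4 against 2.12 at most. The list did not move as one: OAS1 was at 0 and 0.07 FPKM in H1299 and at 7.80 and 5.72 in A549, and IFITM1 was listed at 0 in H1299 and A549. Of 24 tested antigen presentation genes 8 were higher and 2 lower, against 22.5% and 27.1% of all genes tested. The list median was 0.49. Against A549 alone 15 were higher and 8 lower, where all genes tested gave 49% and 39.5%. One of the higher antigen presentation genes was MICB, a stress ligand for the NKG2D receptor, at 28.2 and 28.5 FPKM against 7.98 at most. From the inflammasome list, made after the values had been seen, CASP4 was at 32.2 and 31.4 FPKM against 2.37 at most and NLRP1 at 8.46 and 8.35 against 0.12 at most. The adaptor PYCARD, which links such sensors to caspase-1, was at 0 and 0.16 FPKM in H1299, with 0.19 and 0 under the H2030 label and 19.5 and 17.2 in A549.

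The genes of the study's vector and its partner were looked at in all libraries. NHLRC1 was at 2.85 FPKM in H1299 with the empty vector and at 119 with malin, at 1.21 and 6.82 in A549 and at 0.18 and 3.69 under the H2030 label. The malin H1299 library was the highest of all, and the empty-vector one lay below both other malin libraries, so the lines overlapped. EPM2A, which encodes laforin, the glycogen phosphatase that binds malin, was at 4.24 and 3.96 FPKM in H1299 against 2.96 at most, and limma did not call it (adjusted p = 0.113).

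The line-specific genes were unevenly spread over the chromosomes. On chromosome 17, 51.1% of 744 tested genes were lower in H1299 and 9.14% higher. The median difference there was -0.50, at -0.45 against A549 and -0.53 against the libraries labelled H2030. On chromosome 10, 47.0% of 472 genes were lower, with medians of -0.28 and -0.44 against the 2 lines. On chromosome 19, 38.9% of 895 genes were higher and 18.8% lower, with medians of 0.48 against A549 and 0.02 against the H2030 label. On chromosome 6, 36.0% of 631 genes were higher and 7.61% lower, with medians of 0.86 against A549 and -0.03 against the H2030 label. Against that label alone 3810 of all 12184 genes were higher and 6261 lower. Chromosome medians against it ranged from -0.78 on chromosome 22 to 0.09 on chromosome 12, so -0.03 was among the higher ones. DNA copy number was not measured, and its part in these shares was not tested.

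**Figure D5:**
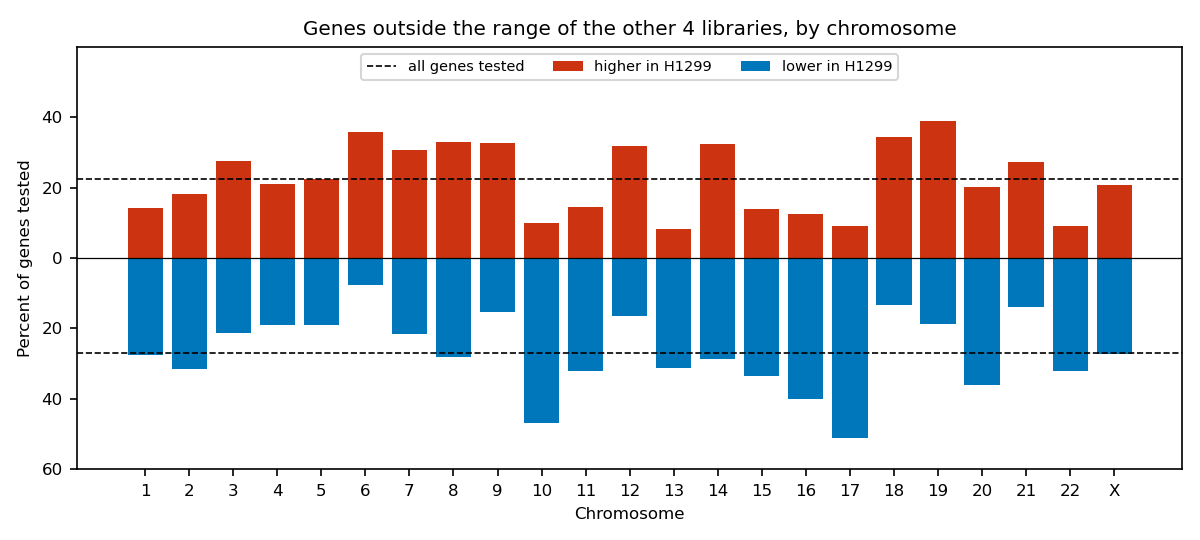
Bars give the percent of tested genes on each chromosome that lay above (red, upward) or below (blue, downward) the range of the other 4 libraries, with dashed lines at 22.5% and 27.1% for all genes. Chromosome 17 has the longest downward bar, at 51.1% of its genes, and chromosome 19 the longest upward one, at 38.9%.

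Tested genes that follow each other along a chromosome often shared a direction over long stretches. Genes that were not tested were skipped, so neighbours here means neighbours among the tested genes. The longest run of higher genes held 18 such neighbours at chr19:39342421-40090943, from SAMD4B to ZNF780A. It included the transcription elongation genes PAF1 and SUPT5H and the nucleolar methyltransferase FBL. FBL was at 555 and 584 FPKM in H1299 against 336 at most. The next longest were 3 runs of 12, at chr14:101760573-103057549 with the chaperone gene HSP90AA1, at chr19:35887952-36245928 with the RNA polymerase subunit POLR2I and at chr19:36850365-37543333, made up of zinc finger genes from ZNF345 to ZNF793. The longest run of lower genes also held 18, at chr1:229321015-231566524 from CCSAP to TSNAX, and included EGLN1, the oxygen-sensing prolyl hydroxylase. Runs of 17 at chr15:76931749-79413886, with the nicotinic receptor genes CHRNA3 and CHRNA5, and of 16 at chr17:28855016-30469989, with NUFIP2 and TAOK1, followed. A second run of 16 on chromosome 17, at chr17:41688885-42288370, held JUP and STAT5B. Gaps inside these runs were small, with medians of 0.64 for the run on chromosome 19 and 0.67 for that on chromosome 1. The MAGEA and CSAG cluster at chrX:152133310-152769689, picked out after its values were seen, was a run of 8 higher genes from MAGEA10 to MAGEA6 with a median gap of 5.00. All its members but MAGEA6 were under 1 FPKM in the other lines and passed the filter only through H1299. The filter therefore helped to make this run.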

How the data were processed

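RNA was sequenced from 6 cultures, 3 line labels with an empty and a malin vector each. The deposited tables give FPKM per gene, which the authors made with cutadapt, FastQC, STAR and Cufflinks on hg38, per the submitters' processing notes; no version, strand setting or annotation is given in the sources used here. Because FPKM is not a count, no count test was run. Tables were joined by gene identifier over 19903 genes. Names came from the files and from RefSeq, which matched 19770 of them. 37 symbols damaged by a spreadsheet were found and 35 were restored by identifier. The deposited FPKM were put on the log2(FPKM + 1) scale, pseudocount 1, for 12184 protein-coding genes with a mean of at least 1 FPKM. limma 3.58.1 in R 4.3.3 with an intensity trend compared 2 H1299 libraries with 4 others, and p-values were adjusted by Benjamini-Hochberg over all genes. The test was checked on simulated data. Depth was estimated from the steps between low values, of which 79.5% to 81.8% lay within 0.2 of a whole number of fragments, so these are estimates with no interval.

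Members and lists were chosen with earlier results of these data known, and the lists on meiosis and piRNA, redox enzymes, metalloproteinases and the inflammasome after their values were seen. Genes named are the 25 largest gaps per direction, up to 6 specific and 3 other members per list described, up to 15 present and 15 absent genes, NHLRC1 and EPM2A, and the longest runs, with exceptions stated. Some genes under this rule are not reported here. Alternatives were other scalings, filters, pseudocounts, gene classes, models and sets of libraries. Promoters are RefSeq sequences on GRCh38.p14.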

Additional observations from a re-analysis of the deposited data

Results flagged for a closer look

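Genes outside the protein-coding class, or without a match in RefSeq, entered no comparison above. Of 2362 such genes, 15 reached 5 FPKM in both H1299 libraries with all 4 other libraries under 0.5, and 0 had the reverse pattern. They were singled out because a signal appeared in H1299 in data left out of the comparison, and the difference was not tested. Further entries of near-identical cancer-testis families account for 8 of the 15, by mean FPKM in H1299: GAGE2C at 672, GAGE4 at 376, GAGE5 at 365.5, GAGE6 at 317, GAGE8 at 96.8, XAGE1D at 23.9, CSAG2 at 11.9 and GAGE12I at 10.5. The reads of these copies cannot be assigned to single genes with certainty. DSCR8, a long noncoding RNA gene, had a mean of 33.0 FPKM and was listed at 0 in all 4 other libraries. The noncoding genes LOC100128252, LOC100507651, LOC100134317 and FAM225A had means of 10.8, 6.42, 5.64 and 5.31 FPKM. ZNF781 and ZNF788, zinc finger pseudogenes with transcripts, had means of 6.46 and 6.44 FPKM.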

How the results depend on the processing

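Counts of genes with values that did not overlap stayed within 1.5 times under both other scalings, without the filter, with a minimum mean of 5 FPKM, with all gene classes, within each vector and without any 1 library, where they ranged from 2808 to 3234 higher and from 3525 to 3647 lower. Against A549 alone 5967 were higher, and against the libraries labelled H2030 alone 6261 were lower, with fewer libraries to exceed. The limma counts stayed within 1.5 times under the scalings, filters, pseudocounts, gene classes and without a trend. Without 1 library they ranged from 52 to 903 higher and from 24 to 806 lower. They were 5234 and 4191 against A549 alone, 2690 and 4632 against the H2030 label alone, and 3534 and 4484 with the 3 lines as groups, where the spread is only that within lines. They were 29 and 9 with line as a random block (correlation 0.912), and 0 and 0 with line means (396 at an unadjusted p under 0.05), in the empty-vector libraries alone (362) and in the malin libraries alone (377), each with 1 residual degree of freedom. No label pairs cultures across lines; with the vector as a replicate block the counts were 299 and 252, and the cause was not tested.

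Of 230 genes checked one by one, 0 changed direction under the scalings and pseudocounts, and 7 to 18 lost their limma call under each. KRT8 was 1.44 higher in log2 against the H2030 label alone, KRT18 was at -0.65 against A549 alone and CDKN2A at -0.16 against the H2030 label alone, each the reverse of its pooled direction. The median over all genes moved from -0.085 to -0.025 and -0.013 under the other scalings. Counts of list members against each line alone were added after seeing the data. At about 8300000 to 10700000 fragments, values under 1 FPKM rest on few reads, so levels near 0 cannot be ranked.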
